A study of Mus musculus with 89 samples.

Results

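S100a8 and S100a9, 2 of the 19962 targets on the mouse Whole Transcriptome Atlas panel, were described across 89 tissue segments of mouse squamous cell carcinoma measured with the GeoMx digital spatial profiler. The genes were taken by name. GeoMx hybridises oligonucleotide tags to RNA on a section, and ultraviolet light releases the tags of a chosen region for sequencing. Regions were picked on immunofluorescence images of fresh frozen tumour sections for their morphology and biological relevance, per the labels' protocols. The antibodies are not named there, and the sources used here do not say whether S100A8 or S100A9 protein helped to choose regions.

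The labels call all 89 segments neutrophil, with the tumour microenvironment as tissue. The authors' deposited annotation divides them into 7 classes by stage and location. The naive slide, from tumours before treatment, held 15 stroma segments, 13 at the interface of tumour and stroma, and 14 within the tumour. The acute slide held 9 stroma and 2 interface segments, and the relapse slide 14 stroma and 22 interface segments, both after the immunotherapy that the series title names. The scan of the naive slide is named "naive UP HRass" and that of the relapse slide "DMBA Relapse", so stage, slide and possibly tumour model cannot be told apart. Mouse strain, age, animals and the therapeutic agent are not given in the sources used here. Because no animal is named, segments share animals, tumours and slides to an unknown extent, and every p-value over segments below is too small and measures only the spread between segments.

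S100a8 and S100a9 encode small calcium-binding proteins of the S100 family that pair as calprotectin. Neutrophils store calprotectin in their cytosol in large amounts and release it as an alarmin, a signal of danger that binds Toll-like receptor 4 and the receptor for advanced glycation end products. Keratinocytes, the epithelial cells from which squamous carcinoma arises, make little of either in healthy epidermis and switch both on in wounds, inflamed skin and carcinoma, together with the stress keratins Krt6a, Krt6b, Krt16 and Krt17. Their RNA in a tumour section can therefore come from either cell type.

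Both genes lie on mouse chromosome 3 with 22595 bases between them (GRCm38.p6, RefSeq annotation). S100a8 spans chr3:90669071-90670034 and S100a9 spans chr3:90692630-90695721. The genes are transcribed in opposite orientations, and the 250 bases before each start, from RefSeq, are printed because the data ask whether the pair is read out together. They come from chr3:90668821-90669070 on the plus strand and chr3:90695722-90695971 on the minus strand. Capitals mark matches on either strand to motifs that were searched as fixed letters. These were TATAAA for the box that places the start of transcription, TTNNGNAA for the C/EBP factors of myeloid and epidermal differentiation, GAGGAA for the myeloid factor PU.1, TGANTCA for AP-1 and TTCNNNGAA for STAT factors.
S100a8 promoter: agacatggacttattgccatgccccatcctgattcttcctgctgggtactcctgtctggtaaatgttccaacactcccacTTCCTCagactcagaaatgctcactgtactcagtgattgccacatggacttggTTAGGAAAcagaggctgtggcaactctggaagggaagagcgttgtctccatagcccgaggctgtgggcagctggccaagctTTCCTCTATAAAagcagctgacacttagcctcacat
S100a9 promoter: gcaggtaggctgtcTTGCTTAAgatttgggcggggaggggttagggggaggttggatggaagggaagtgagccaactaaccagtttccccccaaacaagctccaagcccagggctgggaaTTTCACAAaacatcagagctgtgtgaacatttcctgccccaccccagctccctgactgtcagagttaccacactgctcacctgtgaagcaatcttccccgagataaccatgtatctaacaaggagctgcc

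The S100a8 window held 1 start box 30 bases before the start of transcription, 1 C/EBP match and 2 PU.1 matches, 1 of which abuts the start box. The S100a9 window held 2 C/EBP matches. Neither window held these letters for AP-1 or STAT. Of all 32851 promoter windows of 250 bases in the RefSeq table, 36.8% held the C/EBP letters, 23.3% the PU.1 letters, 12.4% the start box, 7.02% the STAT letters and 6.75% the AP-1 letters. A match describes letters and is not a site of binding.

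Values were read as recovered tag counts, the deposited signal times the deposited factor of each segment. The smallest recovered count was 1, the floor, and 69.1% of all values stood there. Depth, the sum of counts above the floor, had a median of 11327 on the naive slide, 50391 on the acute slide and 3939.5 on the relapse slide. Because depth differed this much, levels are also given as counts above the floor per 10000 such counts of the segment. A limit of quantitation was set for each segment from its negative probes, with a minimum of 2 counts.

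The alarmins were among the better detected targets, at low counts. S100a8 lay above its segment's limit in 44 of 89 segments (49.4%) and S100a9 in 38 (42.7%), against a mean of 8.35% of segments over all targets. Pooled over all segments, S100a8 took 1.76 of 10000 counts (exact Poisson 95% interval 1.58 to 1.97), which is 3.52 times the average target and rank 291 of 19962. S100a9 took 1.56 of 10000 (1.38 to 1.75), 3.11 times the average and rank 357. Such intervals, here and below, cover counting error only. The tags of different targets bind with unknown efficiency, so these ranks describe the readout and not the amount of RNA of one gene against another.

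The neutrophil label was set against 21 neutrophil identity and granule genes other than the alarmins. Of these, 19 were on the panel, and their values exceeded the limit of quantitation in 6.51% of cases, below the 8.35% over all targets. Their summed share was 0.787 times that of as many average targets. Ly6g, the surface antigen that defines mouse neutrophils, exceeded the limit in 6 of 89 segments, and Ltf, which encodes the granule protein lactoferrin, in none. Fpr2, a formyl peptide receptor, was the best detected of the list, in 17 segments. The defining markers of the labelled cell type were thus mostly below their limit, while Krt14, a basal keratin, exceeded it in 66 segments and the stress keratin Krt6a in 57.

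S100a8 had a low count in most naive segments. In naive stroma its recovered count ran from 1 through a median of 3 to 13, and 5 of 15 segments stood at the floor. At the naive interface it ran from 1 through 5 to 8, and within the tumour from 1 through 1 to 12, with 9 of 14 segments at the floor. The 3 naive classes overlapped over most of their range. As pooled shares they stood at 1.09 per 10000 in stroma (0.805 to 1.45), 1.38 at the interface (0.998 to 1.86) and 1.58 within the tumour (0.950 to 2.46), with overlapping intervals.

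On the acute slide, the deepest, S100a8 counts in stroma ran from 1 through a median of 5 to 33. The 2 acute interface segments had 14 and 38 counts at nearly equal depths of 50391 and 50333. Their pooled share of 4.96 per 10000 (3.68 to 6.54) was the highest of the 7 classes, and 1 of them carried most of it. All 9 acute stroma segments lay below both of them in share, at 0 to 1.91 per 10000 against 2.58 and 7.35. How many of all targets separate 2 segments from 9 in this way was not counted, so this is not shown to be particular to S100a8. This class of 2 segments entered none of the 9 comparisons of classes below. Its segments did enter the shared estimate of spread in that fit and the later tests of the S100a9-to-S100a8 ratio.

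On the relapse slide S100a8 counts were small, since depth was low, but its shares were higher. Counts ran from 1 through 3 to 5 in relapse stroma and from 1 through 2 to 7 at the relapse interface. The pooled share was 2.91 per 10000 in relapse stroma (1.88 to 4.30) and 4.04 at the relapse interface (2.90 to 5.48). Both intervals lay above that of naive stroma and of the naive interface, though single segments overlapped widely: the shares ran from 0 to 8.03 in relapse stroma and from 0 to 26.9 at the relapse interface, against 0 to 6.16 and 0 to 6.86 in the naive classes of the same locations.

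S100a9 counts were also low, with another order of the naive classes. They ran from 1 through a median of 4 to 15 in naive stroma, from 1 through 3 to 8 at the naive interface, and from 1 through 1 to 5 within the naive tumour, where 11 of 14 segments were at the floor. In acute stroma they ran from 1 through 10 to 24, and the 2 acute interface segments had 9 and 46. In relapse stroma they ran from 1 through 2 to 6 and at the relapse interface from 1 through 2 to 5. Both acute interface segments lay above every segment of the naive interface, the naive tumour and both relapse classes in counts, at a greater median depth. How many of all targets do the same was not counted. The lower of the 2 segments overlapped naive and acute stroma.

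The pooled S100a9 share was 1.34 per 10000 in naive stroma (1.02 to 1.73), 1.09 at the naive interface (0.755 to 1.52) and 0.913 within the naive tumour (0.456 to 1.63). It was 1.18 in acute stroma (0.931 to 1.48), 5.26 at the acute interface (3.94 to 6.88), the highest of the 7 classes, 2.33 in relapse stroma (1.42 to 3.60) and 2.76 at the relapse interface (1.83 to 3.98). The interval of the relapse interface lay above those of the 3 naive classes, and that of relapse stroma overlapped all 3. As pooled shares S100a9 stood above S100a8 in naive stroma and at the acute interface, and below it in the other five classes.

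Ordered by the median share over segments, S100a8 stood highest at the acute interface (4.97 per 10000), then in relapse stroma (4.08), the relapse interface (2.95), the naive interface (1.34), acute stroma (1.17), naive stroma (0.975) and within the naive tumour (0). S100a9 had the order acute interface (5.26), relapse stroma (1.99), naive stroma (1.59), relapse interface (1.31), acute stroma (1.14), naive interface (0.893) and within the naive tumour (0). For S100a8 the acute interface and acute stroma, which are not neighbours here, did not overlap, though how many of all targets do the same was not counted. All other ranges overlapped, so no neighbours in either order were separated by their spread.

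**Figure D1:**
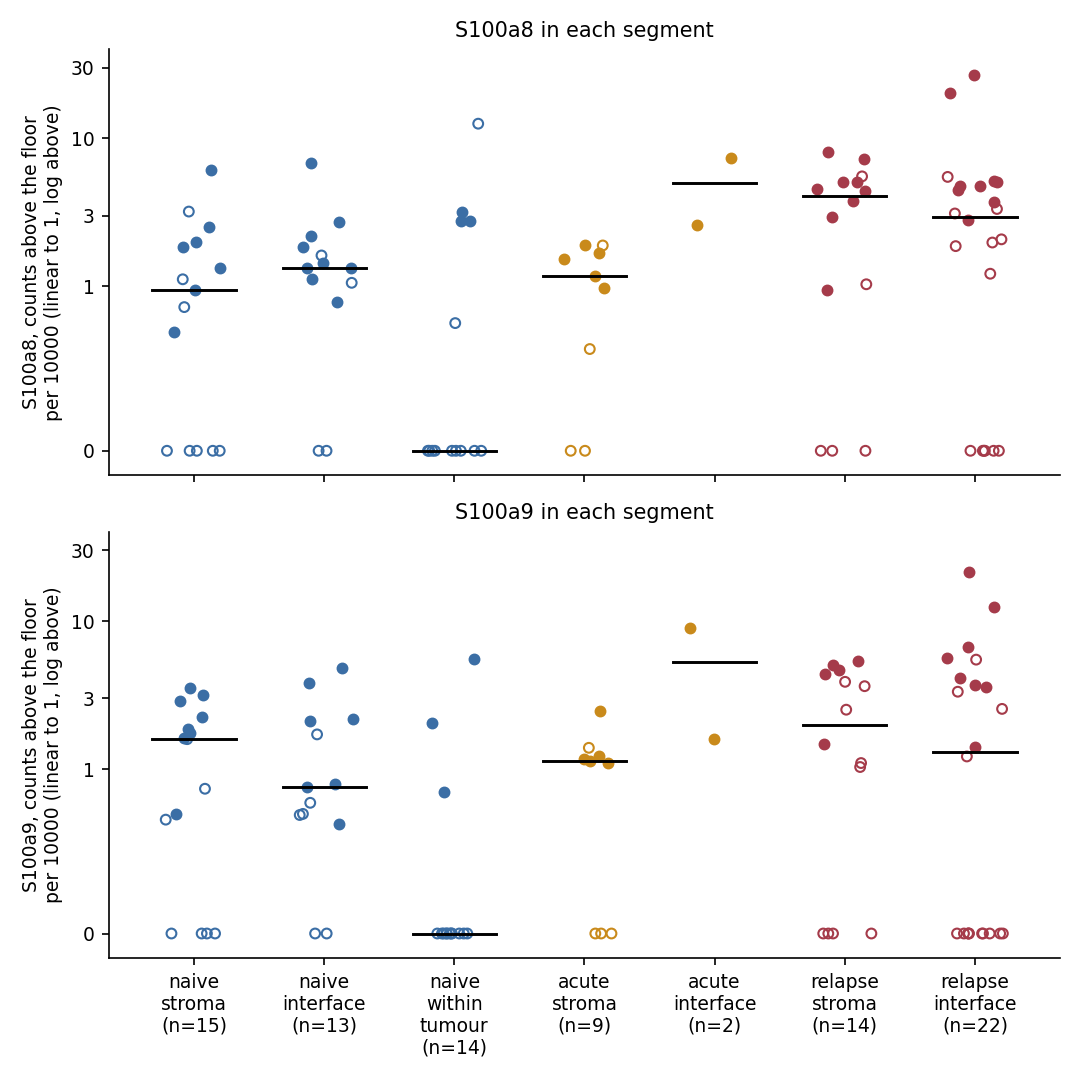
Counts above the floor per 10000 counts of the segment (vertical axis, linear to 1 and log above) for S100a8 (top) and S100a9 (bottom), 1 point per segment in each of the 7 classes. Filled points exceeded the limit of quantitation, open points did not, and lines are medians; S100a8 reaches 26.9 at the relapse interface, while most segments within the naive tumour sit at 0.

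Depth bears on these shares. With every segment thinned to 2000 counts, 77 segments stayed and 12 shallower ones dropped out, 4 of them from within the naive tumour, 1 from relapse stroma and 7 from the relapse interface. The mean thinned S100a8 count was 0.267 ± 0.458 (SD, n = 15) in naive stroma, 0.231 ± 0.599 (n = 13) at the naive interface, 0.846 ± 0.801 (n = 13) in relapse stroma and 0.667 ± 0.900 (n = 15) at the relapse interface. For S100a9 these values were 0.200 ± 0.414, 0.385 ± 0.768, 0.615 ± 0.506 and 0.600 ± 0.737. All lie below 1 count, where no change can be read from the thinned level itself.

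Differences between classes were tested with limma on log2(value + 1), where the value is the deposited signal, with 1 mean per class, log2 depth as a covariate and Benjamini-Hochberg adjustment over 5087 targets in each of 9 comparisons. The floor of 1 count corresponds to a higher signal in a shallow segment, with a median of 1.87 on the naive slide, 0.935 on the acute slide and 3.74 on the relapse slide, so segments at the floor alone stand higher in signal on the relapse slide. Log2 depth was a covariate because depth differed between slides and earlier simulated data with no change gave many calls without it. Its fitted coefficient was positive, 0.11 for S100a8 and 0.08 for S100a9. A positive coefficient moves shallow segments up in a comparison, so for these genes the covariate did not remove their higher floor. The part of the floor in the relapse differences was not tested. The pseudocount makes fitted changes of low values smaller. Neither gene passed at an adjusted p of 0.05 in any of the 9 comparisons. Only 2 of the 18 tests had an unadjusted p under 0.05, both for S100a8 between relapse and naive segments.

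Within the naive slide, the comparison of interface and stroma asked whether the alarmins change with distance to the tumour. S100a8 differed by 0.10 (SE 0.27, limma adjusted p = 0.856) and S100a9 by -0.32 (SE 0.26, adjusted p = 0.488) on the log2 scale. In this comparison 10.7% of all tested targets were called, and the median of all targets was -0.14. Within the tumour against stroma, S100a8 differed by 0.0014 (95% interval -0.54 to 0.54) and S100a9 by -0.44 (-0.97 to 0.09, limma adjusted p = 0.479), where 4.05% of targets were called.

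Within the tumour against the interface the differences were -0.10 for S100a8 and -0.12 for S100a9. There limma called 0 targets (0% of 5087), with 369 at an unadjusted p under 0.05. The intervals of these naive comparisons leave room for changes of up to about 1 log2 unit for S100a9, and a p that misses the threshold does not show that the classes hold equal levels.

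On the relapse slide interface and stroma were close for both genes. The difference was 0.10 for S100a8 (95% interval -0.37 to 0.58) and 0.02 for S100a9 (-0.45 to 0.49), both with a limma adjusted p of 0.999. Here too limma called 0 targets (0%), with 122 at an unadjusted p under 0.05. The difference of the interface effect between relapse and naive was -0.0004 for S100a8 and 0.34 (SE 0.35) for S100a9, with 3.54% of targets called and a median of 0.16 over all targets.

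Between stages in stroma, acute minus naive was 0.04 for S100a8 (SE 0.30) and -0.26 for S100a9 (SE 0.30), with 0.118% of targets called. Relapse minus naive was 0.69 for S100a8 (SE 0.27, 95% interval 0.14 to 1.23, unadjusted p = 0.0133, limma adjusted p = 0.300) and 0.19 for S100a9 (-0.34 to 0.73, limma adjusted p = 0.899). In that comparison 1.61% of targets were called. Relapse minus acute was 0.65 for S100a8 (limma adjusted p = 0.459) and 0.45 for S100a9 (limma adjusted p = 0.650), with 0.983% called.

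At the interface, relapse minus naive was 0.69 for S100a8 (SE 0.27, 95% interval 0.14 to 1.23, unadjusted p = 0.0135, limma adjusted p = 0.201) and 0.53 for S100a9 (-0.01 to 1.06, limma adjusted p = 0.363). Fitted on counts thinned to 1 depth, where the floor is the same in every segment, the S100a8 difference was 0.48 in stroma (limma adjusted p = 0.511) and 0.37 at the interface (limma adjusted p = 0.764). Of all targets 1.45% were called at the interface without thinning. The thinned fit called 8 of 5087 targets in stroma and 19 at the interface. The comparisons of relapse with naive and with acute stroma share the relapse stroma segments, and those with naive share the naive ones.

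**Figure D2:**
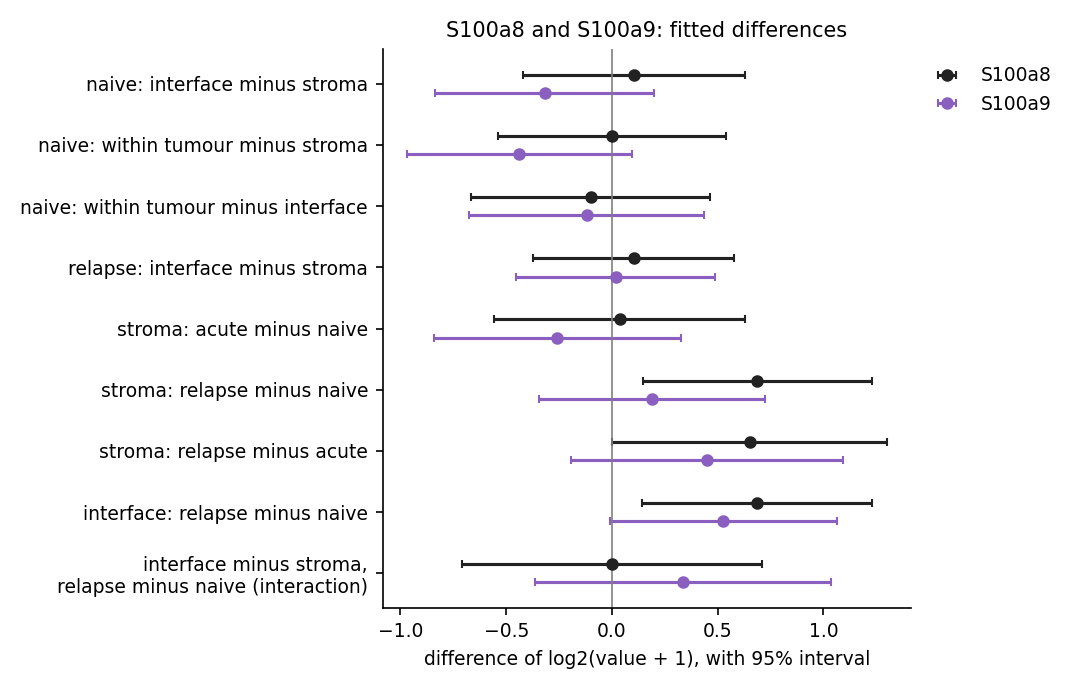
Fitted differences of log2(value + 1) (horizontal axis) for S100a8 and S100a9 in 9 comparisons, with limma's 95% intervals. The intervals of S100a8 for relapse minus naive, 0.14 to 1.23 in both locations, are the ones that leave out 0, and neither passed the adjustment over all targets.

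The collection plate was inferred from the letter G or H in the segment names, and it moved with stage. The naive slide was collected on plate G and the relapse slide on plate H, and the acute slide alone held both. With plate as a covariate the S100a8 difference of relapse minus naive was 0.09 (SE 0.60) in stroma and 0.08 (SE 0.61) at the interface, while that of S100a9 was 0.63 (SE 0.59) and 0.97 (SE 0.60). In acute stroma the 4 segments of plate G had S100a8 shares of 0 to 0.988 per 10000 and the 5 of plate H had 1.17 to 1.91, without overlap. How many of all targets separate these plates in the same way was not counted. The 4 plate G segments had a median depth of 11646 and the 5 of plate H 111275. Those of plate G with a share of 0 were shallow, at depths of 3054 and 2110. For S100a9 the same plates overlapped, at 0 to 2.47 and 0 to 1.23. The 2 acute interface segments, with S100a8 shares of 2.58 and 7.35, were on plate H, so location and plate are partly mixed there. The part of plate in the relapse difference cannot be told apart from stage beyond these acute segments.

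Tissue pieces, found from the coordinates of the regions, gave a finer view of the spread. On the naive slide the 5 pieces had pooled S100a8 shares of 1.05 to 2.16 per 10000, on the acute slide the 5 pieces had 0.619 to 2.58, and on the relapse slide the 4 pieces had 2.77 to 3.89. The relapse pieces lay above all naive and acute pieces, but relapse pieces 2 and 4 held only 4 and 5 S100a8 counts above the floor. The lowest relapse piece, at 2.77, lay close to the highest acute piece, 1 segment at 2.58. How many of all targets separate the pieces in this way was not counted. By limma, another measure, 1.61% of targets were called in relapse minus naive stroma and 1.45% at the interface. For S100a9 the pieces overlapped, with 0.805 to 1.87 on the naive slide, 1.23 to 2.03 on the acute slide and 1.54 to 3.72 on the relapse slide. Pieces of 1 slide share its staining and collection, and their animals are unknown.

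The alarmin pair is made as a protein complex, so its genes were compared within segments. Both exceeded the limit of quantitation in 27 segments, only S100a8 in 17, only S100a9 in 11 and neither in 34. On the acute slide the same 7 of 11 segments exceeded it for both genes. On the naive slide 10 of 42 did so for both, 9 for S100a8 alone and 8 for S100a9 alone, and on the relapse slide 10 of 36, 8 and 3.

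The count ratio of S100a9 to S100a8 did not separate the slides. Where both exceeded the limit, its log2 was -0.04 ± 0.72 on the naive slide (SD, n = 10), -0.13 ± 0.60 on the acute slide (n = 7) and -0.19 ± 0.52 on the relapse slide (n = 10). Acute and naive differed by -0.09 (two-sided exact permutation p = 0.782), relapse and naive by -0.15 (exact permutation p = 0.618), and relapse and acute by -0.05 (exact permutation p = 0.846). All 3 had an adjusted p of 0.846.

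Over segments the relation of the pair differed from slide to slide. With shares on the log2 scale and log2 depth regressed out, Pearson's r between S100a8 and S100a9 was 0.11 over the 42 naive segments (Spearman's rho 0.09), 0.68 over the 11 acute segments (rho 0.24) and 0.58 over the 36 relapse segments (rho 0.40). The acute value rested on the segments farthest from the median of S100a9: without 2 of them it was -0.06. The relapse value was 0.48 without 2 such segments, 0.39 without segments under 2000 counts and 0.29 without relapse piece 3. Within naive stroma r was -0.54 (n = 15). These and all correlations below are descriptions, since segments of a slide share section, depth range and animals, and counts are sparse.

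**Figure D3:**
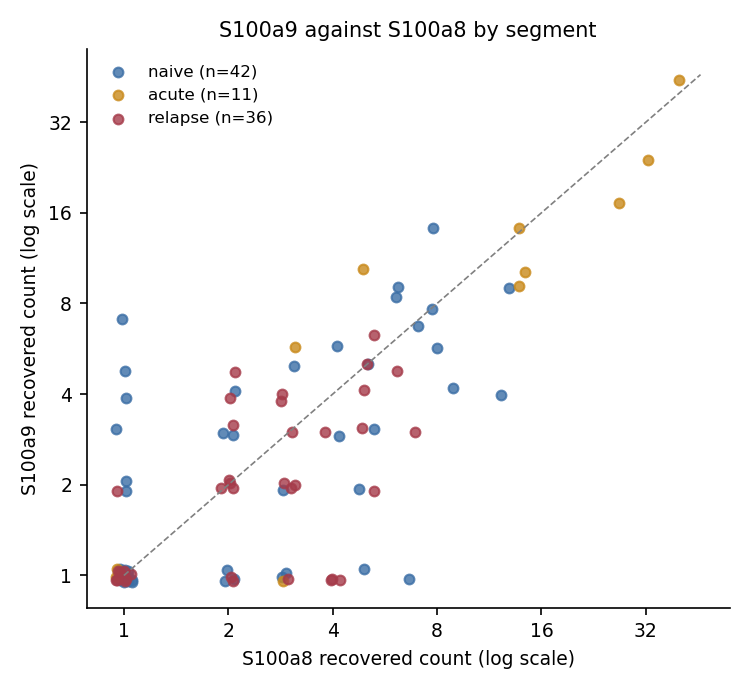
Recovered counts of S100a9 (vertical axis, log scale) against S100a8 (horizontal axis, log scale), 1 point per segment, coloured by slide and moved slightly sideways to separate equal counts; the dashed line marks equal counts. The acute segments reach 38 and 46 counts, and 20 segments have both genes at the floor of 1.

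The series asks about neutrophils, and the alarmins can mark either neutrophils or stressed keratinocytes, so their shares were set against the summed share of keratin RNA and of the neutrophil list over segments. The keratin sum took the 3 basal, 4 stress and 6 suprabasal keratins. On the relapse slide S100a8 went with keratins: r was 0.56 with all keratins (rho 0.55, n = 36), 0.58 with stress keratins and 0.47 with basal keratins. Of all tested targets, 99.8% had a lower r with the keratin sum on that slide, where the median target had -0.01. On that slide S100a8 and S100a9 also exceeded the limit more often than 99.2% and 98.8% of all targets. The part of better detection in such percentages, here and below, was not tested.

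S100a9 had a weaker relation of the same sign on the relapse slide. Its r was 0.39 with all keratins (rho 0.32), 0.40 with stress keratins and 0.37 with basal keratins, and 98.6% of targets lay below it for the keratin sum. With segments under 2000 counts left out, r with all keratins was 0.48 for S100a8 and 0.17 for S100a9 (n = 28). Without the 2 segments farthest from the median keratin share it was 0.59 and 0.45, and without relapse piece 3, a tissue piece of 16 segments, it was 0.43 and 0.19.

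The relation held at both relapse locations for S100a8. With all keratins r was 0.55 in relapse stroma (n = 14) and 0.59 at the relapse interface (n = 22), and for S100a9 it was 0.27 and 0.51. The relapse segment with the highest keratin share, 420.0 per 10000 at the interface, had 7 counts of S100a8 and 3 of S100a9 at a depth of 2976. The one with the second highest, 360.4 per 10000, had 2 and 5 counts at a depth of 3219. The one with the third highest, 339.3 per 10000, had 6 and 5 counts at a depth of 1857 and the highest share of both genes in the series, 26.9 and 21.5 per 10000. All 3 are shallow, so a single count there is worth several per 10000.

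On the naive slide r was near 0, and the difference between slides was not tested. S100a8 had r of 0.09 with all keratins (rho 0.10, n = 42) and S100a9 0.02 (rho 0.13). The 2 naive segments richest in keratin, both within the tumour, held 316.4 and 244.7 keratin counts per 10000 and had both alarmins at the floor. Their depths of 1454 and 1921 allow a share of up to 20.6 and 15.6 per 10000 at a count of 0 above the floor, which is wide. The third, also within the tumour, held 201.0 keratin counts per 10000 and had the highest S100a8 share of the slide, 12.6 per 10000, from 2 recovered counts at a depth of 796, with S100a9 at the floor. By class, S100a9 had r of 0.65 with keratins at the naive interface (n = 13) and -0.21 in naive stroma (n = 15), and S100a8 0.18 and 0.05.

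On the acute slide, with 11 segments, the sign depended on the keratins taken. With all keratins r was -0.21 for S100a8 and 0.05 for S100a9, with stress keratins 0.42 and 0.35, and with basal keratins 0.12 and 0.11. Of all tested targets, 89.4% and 83.6% had a lower r with stress keratins. The acute interface segment with the highest shares of both alarmins, 38 and 46 counts at a depth of 50333, had 17.5 keratin and 8.74 neutrophil list counts per 10000. It stood first of its slide in neither sum, but its stress keratin share of 8.94 per 10000 was the highest there, above 6.77 in the next segment. The other acute interface segment had the next highest S100a8 share, 2.58 per 10000. Its stress keratin share of 1.39 lay below the slide's median of 2.86.

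Against the neutrophil list the alarmins showed no common relation. On the naive slide r was -0.36 for S100a8 (rho -0.09) and -0.27 for S100a9 (rho -0.18). The naive S100a8 value was -0.14 without the 2 segments farthest from the median of the neutrophil list. On the acute slide r was 0.15 and 0.05, and on the relapse slide 0.31 (rho 0.30) and 0.25 (rho 0.20), with 96.9% and 93.5% of targets lower. The relapse values rested on 1 of the 4 tissue pieces: without relapse piece 3, r was -0.19 for S100a8 and -0.0024 for S100a9. The 3 slides thus differ in sign, and because most of the 19 list genes sat below their limit, the sum is mostly made of counts near background.

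Over all 89 segments, with class means removed, S100a8 had r of 0.32 with all keratins and 0.12 with the neutrophil list, and S100a9 0.24 and 0.12. The keratin values exceeded those of 99.2% and 97.6% of tested targets, and the neutrophil values those of 79.8% and 78.9%. Without relapse piece 3 the neutrophil values were -0.13 and -0.05, and without relapse piece 1 the keratin value of S100a8 was 0.21. That of S100a9 was 0.13 without relapse piece 3. A difference between the 2 relations was not tested. The neutrophil sum spanned 0 to 15.1 per 10000 and the keratin sum 2.79 to 420.0, so the narrower sum also has the larger counting error.

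**Figure D4:**
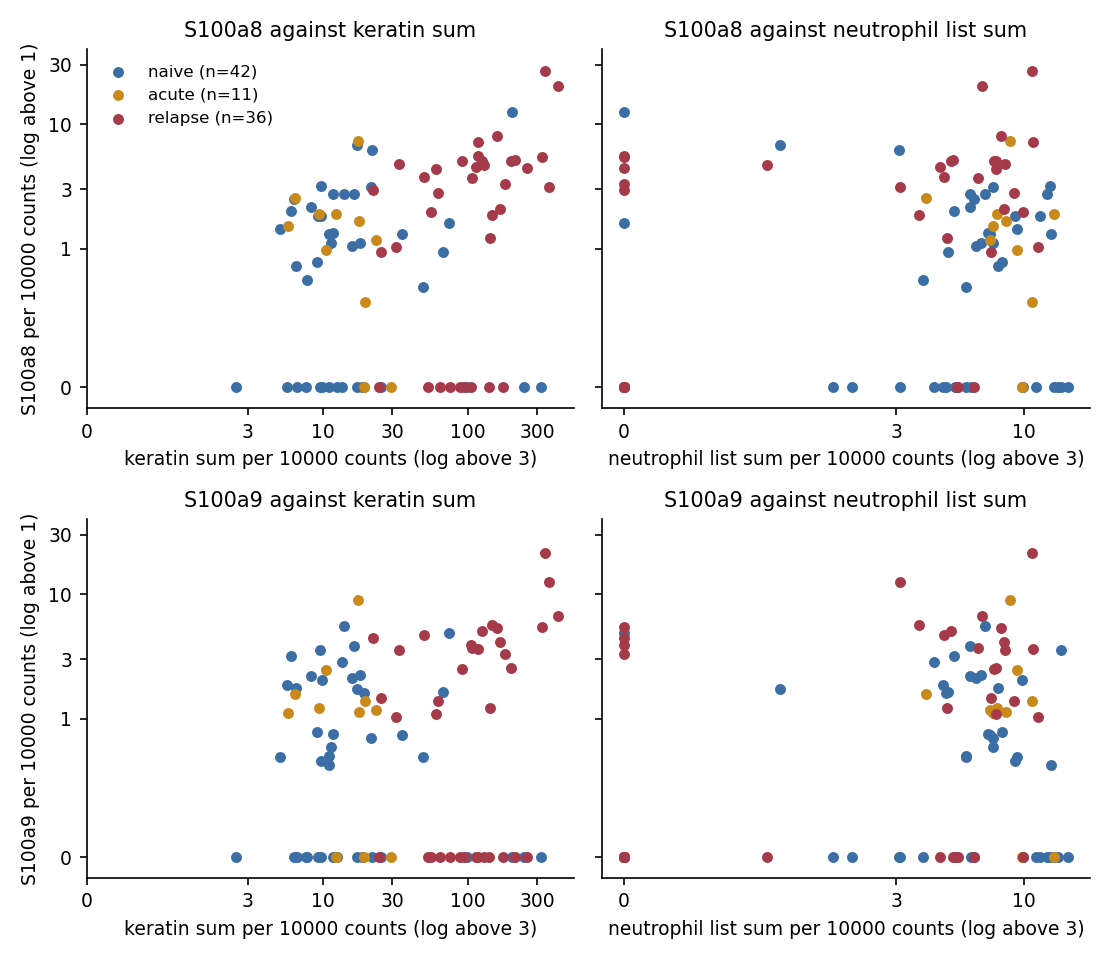
Shares of S100a8 (top) and S100a9 (bottom) per 10000 counts against the keratin sum (left) and the neutrophil list sum (right) per 10000 counts, 1 point per segment, coloured by slide; axes are linear near 0 and log above. The relapse segments extend to 420.0 keratin counts per 10000, and the highest alarmin shares, 26.9 and 21.5, lie near the upper end of the keratin axis.

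Genes of epidermal differentiation and stress, among them the small proline-rich proteins and desmosome parts that barrier keratinocytes make, gave the most even values for S100a8. Its r with their sum was 0.43 on the naive slide, 0.45 on the acute slide and 0.43 on the relapse slide. On the naive slide this rested on single segments, since r was 0.05 without the 2 segments farthest from the median. On the relapse slide it was 0.37 without 2 such segments. S100a9 had 0.08, 0.57 and 0.34.

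Lists of other cell types lay nearer 0 on the relapse slide. There r of S100a8 was -0.07 with macrophage genes, 0.05 with fibroblast genes, 0.01 with endothelial genes, 0.03 with T cell genes and 0.06 with B and plasma cell genes. For S100a9 the values ran from -0.26 with B and plasma cell genes to 0.13 with muscle genes. On the acute slide S100a8 had 0.64 with B and plasma cell genes and S100a9 0.54 with macrophage genes, each over 11 segments.

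**Figure D5:**
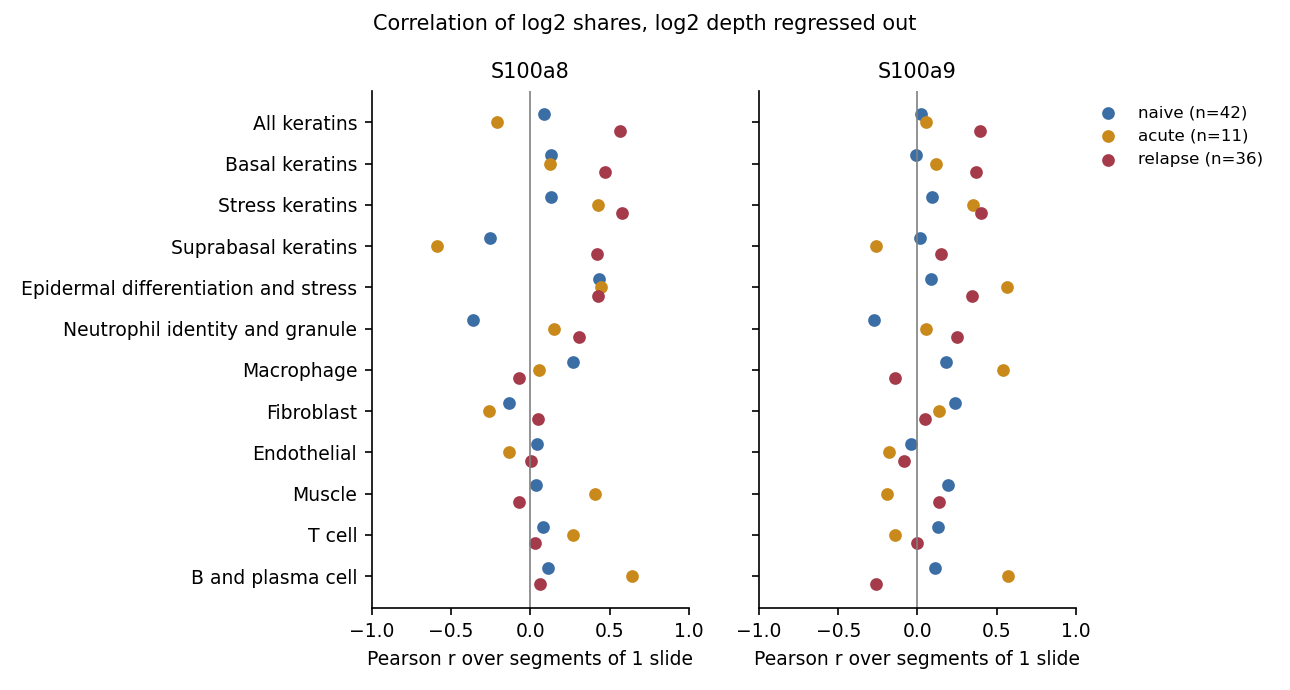
Pearson's r (horizontal axis) of the log2 share of S100a8 (left) and S100a9 (right) with the summed share of each marker list, by slide, with log2 depth regressed out. On the relapse slide the keratin and epidermal lists lie to the right, with r of 0.56 for S100a8 with all keratins, while the naive slide has 0.09.

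Stress and basal keratin RNA rose in the same comparisons in which S100a8 had its largest differences. Suprabasal keratins did not pass: of 4 tested, 0 were called in relapse minus naive, with medians of -0.02 in stroma and -0.08 at the interface. Their pooled share was 8.72 per 10000 on the naive slide and 8.32 on the relapse slide. All 4 stress keratins passed in relapse minus naive stroma, with a median difference of 1.60, and at the interface, with a median of 2.64, where 1.61% and 1.45% of all targets were called and the medians of all targets were -0.03 and 0.13. Krt16 rose by 1.67 in stroma (limma adjusted p = 0.00174) and by 3.21 at the interface (limma adjusted p = 1.52e-12). The basal keratins Krt5 and Krt14 also rose in both, and the third, Krt15, was not tested. With plate as a covariate Krt16 differed by 2.01 in stroma (limma adjusted p = 0.545) and by 3.56 at the interface (limma adjusted p = 0.0246), and of these 6 keratins only Krt16 and Krt5 passed, at the interface alone. Without relapse piece 3 none of the 6 passed in stroma, at differences from 0.46 (Krt17) to 1.78 (Krt16) and adjusted p from 0.0588 (Krt6b) to 0.998. Without naive piece 3 Krt6b alone passed in stroma, and single stroma calls were also lost without naive piece 4 or 5, without relapse piece 1 or with thinned counts. With tissue piece as a random block Krt17 (limma adjusted p = 0.101) and Krt5 (limma adjusted p = 0.0552) lost their stroma calls and the other four kept them. At the interface all 6 passed without any 1 piece, except Krt14 (adjusted p = 0.0788) and Krt17 (adjusted p = 0.0501) without naive piece 4. None of the 4 tested genes of the neutrophil list passed in any comparison, where 0% to 10.7% of all targets were called. The rise was not particular to keratins. Of 3 tested B and plasma cell genes, 2 passed higher in relapse minus naive stroma (median of the 3, 1.99). At the interface all 3 passed (median 3.29). In stroma 6 of 8 fibroblast and 2 of 9 macrophage genes passed lower. The calls of these other lists were not followed through the alternative fits.

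As pooled shares, relapse stood over naive by 5.09-fold for all keratins and 9.28-fold for stress keratins, by 2.79-fold for S100a8 and 2.15-fold for S100a9, and by 0.778-fold for the neutrophil list. Per 100 keratin counts the naive slide had 5.94 counts of S100a8 and the relapse slide 3.26, and the acute slide, poor in keratin, had 14.2. For S100a9 these were 5.62, 2.37 and 12.9. The part of keratinocyte RNA in the alarmin differences was not tested. In such segments more cells of a type and more RNA per cell cannot be told apart.

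The targets most like S100a8 over all 89 segments, by r of residuals after class means and depth, were Shisa5 (0.52), Adgra2 (0.48), Krt17 (0.47), Olfr1015 (0.46) and Rrn3 (0.45). Krt17 is the stress keratin named above, and it exceeded the limit in 35 segments, while the other four did so in 9 or 10. S100a9 ranked 199 of 5086 among the targets most like S100a8, with r of 0.32. The keratins Krt16, Krt6a, Krt14 and Krt5 ranked 36, 66, 69 and 83, with r from 0.35 to 0.38, against a median of 0.14 over all targets and a 99th percentile of 0.37. 

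For S100a9 the most alike were Lyrm2 (0.49), Prag1 (0.49), Magt1 (0.46), Emc7 (0.46) and Rpap2 (0.46), all detected in 9 to 24 segments. Krt17 ranked 102 with r of 0.35. Lyz2, the lysozyme of macrophages and neutrophils, ranked 1246 for S100a8 and 660 for S100a9. Most of these leading targets are near the floor in most segments, so their order is fragile.

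The other S100 genes gave the family background. All 14 listed were on the panel and 12 were tested. S100a11, a relative made in keratinocytes and many other cells, exceeded the limit in 50 of 89 segments, more often than either alarmin, and S100z in 41. S100a7a, the mouse relative of psoriasin, did so in 25. In 8 of the 9 comparisons no family member passed, where 0% to 10.7% of all targets were called. In the interaction S100a11 passed alone, with an interface effect 1.21 higher in relapse than in naive (SE 0.37, limma adjusted p = 0.0412). In that interaction 3.54% of targets were called. The call was lost in 11 of 25 alternative fits, with adjusted p up to 0.781, among them those without naive piece 2, 3 or 4 or relapse piece 1 or 3. With tissue piece as a random block its adjusted p was 0.0991 (limma).

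Receptors and signalling partners of the alarmins exceeded the limit in 11.5% of cases, against 8.35% over all targets, so most of their values lay below it. Of 8 genes, Tlr4, its partner Ly96, the receptor for advanced glycation end products Ager and the adaptor Myd88 exceeded the limit in 8, 6, 1 and 5 segments and were not tested. Cd14, the co-receptor of Tlr4, exceeded it in 13 and Bsg, which encodes basigin, in 25. Cd36, a scavenger receptor, was lower at the naive interface than in naive stroma by -1.02 (limma adjusted p = 2.44e-04), and Cd68, a macrophage protein, by -0.68 (limma adjusted p = 0.0250). In that comparison 10.7% of targets were called, and 7 of 9 macrophage genes, Cd68 among them, were lower too. In the interaction Cd36 was higher by 0.98 (limma adjusted p = 0.0356). With every segment thinned to 1 depth neither gene passed: Cd36 differed by -0.22 (limma adjusted p = 0.735) and Cd68 by -0.12 (limma adjusted p = 0.857) at the naive interface, and Cd36 by 0.14 in the interaction. The Cd36 call at the naive interface held without any 1 piece, while that of Cd68 was lost without naive piece 1, 2 or 4 and the interaction call without naive piece 1, 4 or 5 or relapse piece 1 or 3. With tissue piece as a random block Cd68 at the naive interface (limma adjusted p = 0.0619) and Cd36 in the interaction (limma adjusted p = 0.0807) did not pass.

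The cytokines that induce the alarmins in skin were near the floor. Of 12, 3 were tested (Il1a, Il6 and Il36g) and none passed. Tnf, Il17a and Il36a exceeded the limit in no segment, and Il1b in 7. Of 10 transcription factors known to act on the locus 4 were tested (Cebpe, Stat3, Junb and Hif1a) and none passed. At those shares of calls, 0 calls among so few genes says little about either list. Hif1a, the hypoxia factor, was the best detected, in 24 segments, and Cebpb in 2.

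Genes that calprotectin signalling is known to raise were also sparse. Of 11, Cxcl1 and Ccl4, which encode chemokines for neutrophils and for mononuclear cells, were tested and neither passed. With 0% to 10.7% of all targets called by comparison, that says little about these genes. Ccl4 exceeded the limit in 22 segments and Cxcl1 in 13, while Ptgs2, the inducible cyclooxygenase, did so in 2. Summed over segments, the inducers stood at 0.666 and the targets at 0.888 times as many average genes of the panel. The receptors and signalling partners stood at 1.24 and the transcription factors at 1.09, against 3.52 for S100a8 and 3.11 for S100a9.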

How the data were processed

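The values deposited by the authors are normalised signal, 1 value for each target in each segment. Per the file headers, the deposited annotation gives each segment's upper-quartile factor, a ratio, and the geometric mean and SD of its negative probes. Signal times factor gave whole recovered counts for 99.986% of values (tolerance 1e-06; 3 targets held others). Steps in the signal alone, without that factor, did not give whole counts for nearly all values, and the sources used here do not say that the recovered counts are the original ones. The sources used here do not say how the floor of 1 arose. Per the submitters' processing notes, Seurat and mm10 were used.

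Depth summed the counts above that floor. The limit of quantitation was the larger of 2 counts and the negative-probe mean times its SD to the power 2. Targets above it in at least 10% of segments were tested (5087) with limma 3.58.1 in R 4.3.3 (trend, two-sided, pseudocount 1). Correlations and exact tests used Python 3.11.15 with scipy 1.17.1. The script was tested on simulated data.

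The genes and lists were chosen with earlier results of these data known. Named genes were both alarmins, the 5 targets most alike to each, and list members that passed or were best detected; Krt5, Krt14, Krt6a, Krt16 and Lyz2 beside the alike targets, and genes named as poorly detected, were chosen after their values were seen. Lists of macrophage, fibroblast, endothelial, muscle, T cell, B and plasma cell, and erythroid genes served as markers of other cells; of 4 erythroid genes 1 was on the panel, above the limit in 30.3% of segments.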

Additional observations from a re-analysis of the deposited data

How the results depend on the processing

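Neither alarmin passed in any of 25 alternative fits of the 9 comparisons (lowest adjusted p 0.103). Since the reported fits made no call either, this says nothing about differences of the sizes their intervals allow. The tissue pieces were derived from coordinates after the data were seen, and the fits without 2 segments and voom were added then too. edgeR's quasi-likelihood test on recovered counts was not run, because whole counts came only with the deposited factors and not from steps in the signal alone; limma's voom on the recovered counts took its place. The labels give no replicate numbers by which to pair segments. With tissue piece as a random block (estimated correlation 0.0363) S100a8 for relapse minus naive was 0.69 in stroma and 0.67 at the interface, the calls of targets there were 55 and 27, and the interaction had 81. Depth limits most values: 12 of 89 segments held under 2000 counts.

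Small differences changed sign, none of them called, and the cause was not tested. Thinned to 1 depth, S100a8 differed by -0.0678 for naive interface minus stroma, 0.1012 for within tumour minus interface, -0.178 for relapse interface minus stroma and -0.1556 for acute minus naive stroma, and S100a9 by 0.1208 for naive interface minus stroma, -0.0707 for relapse interface minus stroma and -0.1915 for the interaction. As shares per 10000, S100a8 differed by -0.0789 for within tumour minus stroma and -0.1243 for acute minus naive stroma, and S100a9 by 0.0115 for naive interface minus stroma and -0.0103 for the interaction. S100a8 within tumour minus stroma was -0.1769 without the depth covariate, -0.0041 with a pseudocount of 0.5, -0.0872 without shallow segments and -0.0316 with plate. Its acute minus naive stroma difference was -0.2539 with plate, and its interaction was 0.0848 with values rescaled to 1 total, 0.0001 with a pseudocount of 0.5 and 0.177 without shallow segments. S100a9 was -0.0217 for relapse interface minus stroma without the depth covariate, and for acute minus naive stroma 0.0918 rescaled and 0.075 with voom. Over segments with both counts above the floor, the log2 ratio differed by 0.0795 between acute and naive. Without the 2 segments farthest from its median, the neutrophil list had r of 0.2393 with S100a8 over all segments.

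Leaving out 1 piece at a time, S100a8 ranged from -0.0135 to 0.1888 for naive interface minus stroma, -0.096 to 0.1662 for within tumour minus stroma, -0.2174 to 0.0379 for within tumour minus interface, -0.0994 to 0.5191 for relapse interface minus stroma, -0.069 to 0.1337 for acute minus naive stroma and -0.2016 to 0.4041 for the interaction. Its relapse minus naive difference kept its sign, at 0.56 to 0.81 in stroma and 0.55 to 0.97 at the interface. S100a9 ranged from -0.3045 to 0.0524 for within tumour minus interface, -0.0907 to 0.3414 for relapse interface minus stroma and -0.0113 to 0.2781 for relapse minus naive stroma. The log2 ratio ranged from -0.3458 to 0.0582 for acute minus naive, -0.3166 to 0.0881 for relapse minus naive and -0.1367 to 0.2007 for relapse minus acute. On the relapse slide, r with all keratins ranged from 0.43 to 0.60 for S100a8 and 0.19 to 0.47 for S100a9; over all segments, r of S100a8 with all keratins ranged from 0.2125 to 0.4026, r of S100a9 with the neutrophil list from -0.047 to 0.1678, and r of S100a8 with the neutrophil list from -0.1268 to 0.2375, and on the relapse slide from -0.19 to 0.53, the lowest without relapse piece 3.

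Counts of called targets moved more. Over all alternatives they ran from 10 to 768 for naive interface minus stroma, 28 to 225 for within tumour minus stroma, 0 to 3 for within tumour minus interface, 0 to 1 for relapse interface minus stroma, 0 to 138 for acute minus naive stroma, 2 to 114 for relapse minus naive stroma, 9 to 1241 for relapse minus acute stroma, 4 to 497 at the interface and 0 to 241 for the interaction. The 16 differences of keratins, S100a11, Cd36 and Cd68 kept their sign in all alternatives and lost their call in 70 of 397 refits.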
